A study of Mus musculus with 6 samples.

Results

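The granzymes and perforin are the cytotoxic effector proteins that lymphocytes store in secretory granules. Their transcripts were measured in whole B16F10 tumors of mice given adoptive cell transfer (ACT) with IL-2 or with NKTR-214. The members were the table entries whose symbol was Gzma, Gzmb, Gzmc, Gzmd, Gzme, Gzmf, Gzmg, Gzmk, Gzmm or Prf1, and all 10 were found among 21358 entries. The hosts were C57/BL6 mice (Thy1.2+) with subcutaneous B16F10, a mouse melanoma line that carries the antigen gp100, grown to at least 150 mm3. Every mouse received 500 cGy of total body irradiation and 2000000 intravenous pmel-1 splenocytes (Thy1.1+), which had been activated with peptide and whose transgenic T cell receptor recognizes gp100. The ACT + IL-2 group was given IL-2 intraperitoneally at 0.4 mg/kg on 3 consecutive days, and the ACT + NKTR-214 group was given NKTR-214 (IL-2 with releasable polyethylene glycol chains) intravenously at 0.8 mg/kg once. Both schedules were repeated every 9 days. Tumors were taken at day 12 from 3 mice per group, and each gave 1 RNA-seq library. Days count from the transfer, and by the paper the second cycle began on day 9, before harvest. NKTR-214 was then given once and IL-2 on 3 consecutive days, so the time since the last dose differed between groups.

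Perforin, the product of Prf1, forms pores in the membrane of a target cell, and granzymes, which are serine proteases, enter through them and cleave proteins inside. Granzyme B cuts after aspartate and starts caspase-dependent apoptosis, whereas granzyme A and granzyme K cut after basic residues and granzyme M after methionine or leucine. Mouse granzymes C, D, E, F and G have no direct human counterparts and are known mainly from strongly activated cytotoxic T cells and NK cells. In T cells, IL-2 receptor signaling through STAT5 and the factors T-bet, Eomes and Runx3 are known regulators of Gzmb and Prf1.

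The genes lie at 4 places in the genome (GENCODE positions on GRCm38). Gzme, Gzmd, Gzmg, Gzmn, Gzmf, Gzmc and Gzmb stand in this order on the minus strand of chr14:56117626-56262260, a stretch of 144.6 kb with 7 granzyme genes. Gzma (chr13:113093825-113100981) and Gzmk (chr13:113171608-113225908) are neighbors on the minus strand. Prf1 (chr10:61297833-61304680) and Gzmm (chr10:79689020-79695261) are on the plus strand of chromosome 10, far from each other.

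The 250 bases before the RefSeq start site were searched on both strands for a Runx motif (TGTGGT), a T-box motif (AGGTGT), a STAT motif (TTCNNNGAA) and an AP-1 motif (TGANTCA), since factors that bind these letters are known at cytotoxic genes. The Runx motif was present in 9 of 10 members, all except Gzmk, against 14.05% of 32851 promoters of the same length. These 9 are not independent, because the promoters of Gzmc to Gzmg are 86.0% to 95.6% identical to each other, whereas that of Gzmb is 67.5% to 70.8% identical to the others of the cluster. In Gzmc, Gzmd, Gzme, Gzmf and Gzmg the motif stood as a pair on opposite strands that point away from each other, shown here in RefSeq sequence of GRCm38.p6, 5′ to 3′ on the strand of the gene, with the motif in capitals (ACCACA is TGTGGT read from the other strand):
Gzmc (chr14:56234740-56234841, minus strand): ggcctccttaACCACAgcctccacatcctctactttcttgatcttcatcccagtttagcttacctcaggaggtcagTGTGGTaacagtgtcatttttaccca
Gzmd (chr14:56132680-56132777, minus strand): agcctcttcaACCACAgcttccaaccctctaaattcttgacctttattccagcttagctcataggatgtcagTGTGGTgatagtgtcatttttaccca
Gzme (chr14:56120713-56120810, minus strand): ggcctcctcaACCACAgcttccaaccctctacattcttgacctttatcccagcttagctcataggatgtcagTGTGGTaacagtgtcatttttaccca
Gzmf (chr14:56211515-56211612, minus strand): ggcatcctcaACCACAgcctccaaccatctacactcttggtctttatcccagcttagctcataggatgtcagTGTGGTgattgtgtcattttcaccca
Gzmg (chr14:56159682-56159779, minus strand): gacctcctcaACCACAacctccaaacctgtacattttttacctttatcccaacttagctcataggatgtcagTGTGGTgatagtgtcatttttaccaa

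The promoters of the other 5 members are shown because their motifs differ from that pair. Gzmb held the Runx motif at 2 places in the same direction with an AP-1 motif (TGAGTCA here) between them, and no other member held AP-1, which was found in 6.75% of all promoters. The T-box motif was present in Gzma, Gzmk and Prf1, 3 of 10 members, against 11.8% of all promoters. The STAT motif was present in Gzmm alone, against 7.02% of all promoters, and the Runx motif of Gzmm lay farther upstream, outside the bases shown. No motif match overlapped another. Capitals again mark the motifs, and ACACCT is AGGTGT read from the other strand. A match of letters is a description of the sequence and was not set against binding data:
Gzmb (chr14:56262343-56262437, minus strand): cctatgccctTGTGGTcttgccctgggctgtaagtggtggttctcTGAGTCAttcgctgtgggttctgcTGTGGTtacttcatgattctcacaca
Gzma (chr13:113101006-113101071, minus strand): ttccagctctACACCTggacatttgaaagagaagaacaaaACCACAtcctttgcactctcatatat
Gzmk (chr13:113181109-113181207, minus strand): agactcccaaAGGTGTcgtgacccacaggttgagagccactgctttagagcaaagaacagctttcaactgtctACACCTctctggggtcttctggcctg
Prf1 (chr10:61297696-61297835, plus strand): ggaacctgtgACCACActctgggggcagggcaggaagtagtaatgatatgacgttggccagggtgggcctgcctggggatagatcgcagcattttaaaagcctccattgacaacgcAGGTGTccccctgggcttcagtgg
Gzmm (chr10:79688924-79688962, plus strand): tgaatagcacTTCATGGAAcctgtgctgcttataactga

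Levels were deposited as FPKM, which counts fragments relative to exon length and to the mapped total and so corrects for transcript length, so that levels of different genes can be set side by side. The spacing of low values, where 1 read makes 1 step, gave a rough estimate of 20900000 to 24600000 reads per library, and 33.0% of the 806 genes that set it lay within 0.05 (log2) of it. The labelled tumor was borne out by melanocyte genes, whose summed FPKM over Pmel, Mlana, Tyr, Tyrp1 and Dct was 5176 to 6627 in ACT + IL-2 and 2554 to 3615 in ACT + NKTR-214. Over 6 pan T cell genes (Cd3d, Cd3e, Cd3g, Cd247, Lck, Cd2) the sum was 11.8 to 24.9 FPKM in ACT + IL-2 and 126 to 264 FPKM in the other group, and all 6 genes were called higher. In whole-tumor RNA, more cytotoxic cells and more RNA per cell cannot be told apart.

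Differences were tested by limma on log2(FPKM + 1), over the 14172 genes whose mean FPKM reached 0.1, with Benjamini-Hochberg adjustment at 0.05. On this scale a fold change understates the change of a gene with low values. All 10 members were tested and all 10 were higher in ACT + NKTR-214, where 20.7% of all genes were called higher. In all 10 the lowest ACT + NKTR-214 tumor lay above the highest ACT + IL-2 tumor, and such a lack of overlap was also true of 42.4% of all genes in either direction. With the variance of each gene alone in place of the variance that limma shares across genes, 6 members were called higher, where 0.713% of all genes were. The median log2 fold change of the members was 4.81, beside 0.05 over all genes tested. Ranked by log2 fold change among the 14172 genes, Gzmf, Gzmg, Gzmd, Gzma, Gzme, Gzmb and Gzmc took places 2 to 8 in this order, Prf1 was at 11, Gzmk at 55 and Gzmm at 1689.

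**Figure D1:**
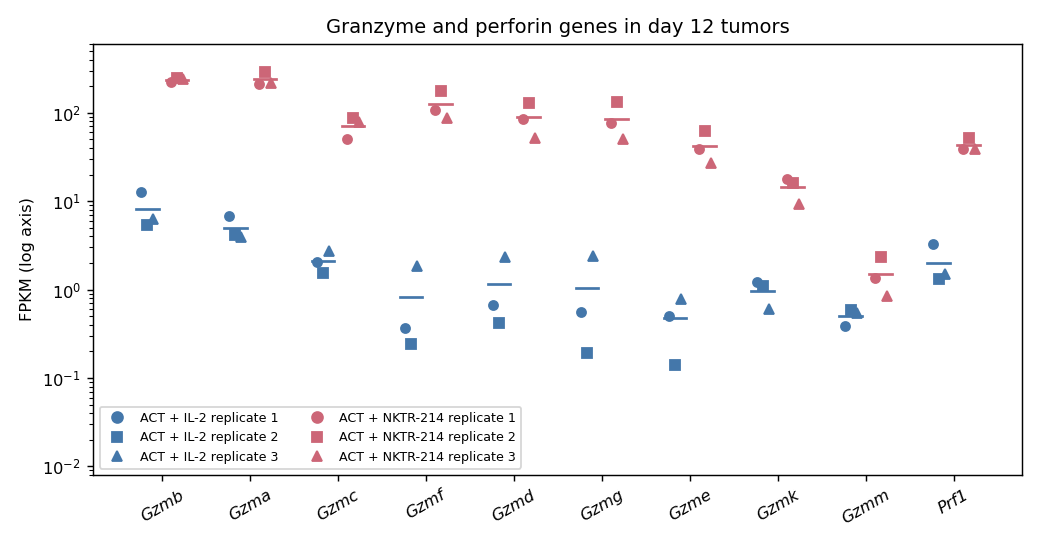
FPKM of the 10 genes on a log axis, with 1 point per tumor (circle, square and triangle for replicates 1, 2 and 3) and a line at the mean of each group of 3. The ACT + NKTR-214 tumors stood above the ACT + IL-2 tumors for every gene, with the narrowest gap for Gzmm (0.590 against 0.839 FPKM).

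Gzmb was the most abundant member in ACT + IL-2 tumors. Its FPKM was 12.6, 5.43 and 6.35 in replicates 1, 2 and 3 of ACT + IL-2 and 224, 245 and 243 in those of ACT + NKTR-214. The ACT + NKTR-214 tumors were close to each other, whereas ACT + IL-2 replicate 1 was higher than the other 2. The means were 8.11 ± 3.87 and 238 ± 11.5 (SD, n = 3 each), a ratio of 29.3, and the log2 fold change was 4.79 ± 0.22 (SE, limma adjusted p = 1.08e-09).

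Gzma reached the level of Gzmb in ACT + NKTR-214. It was at 6.71, 4.12 and 3.91 FPKM in the ACT + IL-2 tumors and rose to 213, 286 and 216 FPKM with NKTR-214, with means of 4.91 ± 1.56 and 239 ± 41.4 (SD, n = 3 each). The ratio of means was 48.6 and the log2 fold change 5.36 ± 0.19 (SE, limma adjusted p = 1.21e-10). The ACT + IL-2 values of Gzma corresponded to 141, 83 and 72 reads, so that counting error was small beside this difference. Gzma and Gzmb ranges overlapped in ACT + NKTR-214, and no order was drawn between them.

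Prf1 was higher by a smaller factor than Gzma and Gzmb. The 3 ACT + IL-2 tumors held 3.25, 1.32 and 1.49 FPKM (159, 62 and 64 reads) and the 3 ACT + NKTR-214 tumors 39.0, 52.0 and 38.8 FPKM. As for Gzma and Gzmb, replicate 1 was the highest of the ACT + IL-2 tumors. The mean went from 2.02 ± 1.07 to 43.3 ± 7.54 FPKM (SD, n = 3 each), a ratio of 21.4, with a log2 fold change of 3.92 ± 0.21 (SE, limma adjusted p = 6.29e-09).

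Gzmf, one of the cluster granzymes with no direct human counterpart, changed most among the members on the log2 scale. It was at 0.368, 0.240 and 1.84 FPKM in ACT + IL-2, which came from 8, 5 and 35 reads, and at 108, 176 and 88.2 FPKM under NKTR-214. All ACT + IL-2 values lay below 2 FPKM, and replicate 3 was the highest of them. The log2 fold change was 6.15 ± 0.28 (SE, limma adjusted p = 1.08e-09). The ratio of means was 152, but its denominator rested on few reads, with a 95% Poisson interval of 1.62 to 11.7 reads in the lowest tumor (counting error only), and without ACT + IL-2 replicate 3 the ratio was 409.

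Gzmd, Gzme and Gzmg had the same order of tumors as Gzmf. Gzmd was at 0.669, 0.419 and 2.34 FPKM in ACT + IL-2 tumors and at 85.3, 130 and 52.5 FPKM in ACT + NKTR-214. Gzmg was at 0.551, 0.192 and 2.41 FPKM and at 76.3, 132 and 50.4 FPKM, respectively. Gzme, by group means the lowest of the cluster members tested, was at 0.498, 0.142 and 0.775 FPKM and at 38.6, 61.4 and 27.3 FPKM. In each of these genes replicate 3 was the highest ACT + IL-2 tumor and the lowest ACT + NKTR-214 tumor. Their log2 fold changes were 5.41 ± 0.30 for Gzmd, 4.83 ± 0.24 for Gzme and 5.45 ± 0.34 for Gzmg (SE, limma adjusted p at most 3.35e-08).

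Gzmc, which is also in the cluster, had less spread among ACT + IL-2 tumors. Its FPKM was 2.06, 1.54 and 2.75 (46, 33 and 54 reads) in ACT + IL-2 and 50.5, 86.6 and 78.0 in ACT + NKTR-214. The log2 fold change was 4.53 ± 0.20 (SE, limma adjusted p = 9.68e-10) and the ratio of means 33.9.

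Values of the cluster genes were not fully separate measurements. Of all 50-base windows, the length of the reads, Gzmd shared 21.9%, Gzme 20.6%, Gzmg 19.8%, Gzmf 7.36% and Gzmc 4.14% exactly with another transcript of the cluster, whereas Gzma, Gzmb, Gzmk, Gzmm and Prf1 shared none with the other granzymes or perforin. The transcripts of Gzmd and Gzme were 95.1% identical. How the authors' counting treated such reads is not given in the sources used here, so the split between Gzmd, Gzme and Gzmg is uncertain. Gzmn, the 7th gene of the cluster and no member, was at 0 reads in all ACT + IL-2 tumors and at 6, 5 and 1 reads in ACT + NKTR-214, which was too low to test. Of its windows, 5.74% were shared with Gzmd, Gzme or Gzmg, each of which had about 599 or more reads in every ACT + NKTR-214 tumor.

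Gzmk, a granzyme known from memory and tissue T cells, stood between the cluster genes and Gzmm. Its FPKM was 1.21, 1.10 and 0.602 in ACT + IL-2, from 23, 20 and 10 reads (the fewest that fit), and 18.0, 16.0 and 9.38 in ACT + NKTR-214. In both groups replicate 3 was the lowest. The means were 0.971 ± 0.325 and 14.4 ± 4.50 (SD, n = 3 each), a ratio of 14.9, and the log2 fold change was 2.94 ± 0.21 (SE, limma adjusted p = 1.10e-07).

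Gzmm, a granzyme known from NK cells and innate-like lymphocytes, was the lowest member in ACT + NKTR-214 and changed least. The ACT + IL-2 tumors were at 0.388, 0.590 and 0.544 FPKM (13, 19 and 16 reads) and the ACT + NKTR-214 tumors at 1.35, 2.36 and 0.839 FPKM (47, 81 and 28 reads). The groups did not overlap, but the counting intervals of the nearest tumors did, at 11.4 to 29.7 reads for ACT + IL-2 replicate 2 and 18.6 to 40.5 reads for ACT + NKTR-214 replicate 3. The log2 fold change was 0.70 ± 0.17 (SE, limma adjusted p = 0.00541) and the ratio of means 2.99. This call was lost with quantile normalization (log2 fold change 0.43, adjusted p = 0.108), without ACT + IL-2 replicate 2 (adjusted p = 0.0644) and with the variance of Gzmm alone (adjusted p = 0.161), whereas over all alternatives the direction was kept.

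By mean FPKM in ACT + NKTR-214, the members ranked Gzma (239 ± 41.4), Gzmb (238 ± 11.5), Gzmf (124 ± 46.3), Gzmd (89.3 ± 38.9), Gzmg (86.1 ± 41.4), Gzmc (71.7 ± 18.8), Prf1 (43.3 ± 7.54), Gzme (42.4 ± 17.4), Gzmk (14.4 ± 4.50) and Gzmm (1.52 ± 0.776; SD, n = 3). Ranges over the 3 tumors overlapped between all neighbors in this order from Gzmf to Gzme and between Gzma and Gzmb, and did not overlap between Gzmb and Gzmf, Gzme and Gzmk or Gzmk and Gzmm. In ACT + IL-2 the order was Gzmb (8.11), Gzma (4.91), Gzmc (2.12), Prf1 (2.02), Gzmd (1.14), Gzmg (1.05), Gzmk (0.971), Gzmf (0.815), Gzmm (0.507) and Gzme (0.472), and neighbors overlapped except Gzma and Gzmc. Gzmf therefore stood at place 3 in one group and at place 8 in the other. The ACT + IL-2 means of Gzmf, Gzmd and Gzmg, and so their places, rested largely on replicate 3 (Gzmf 1.84 FPKM, against 0.368 and 0.240 in replicates 1 and 2).

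T cell transcripts were also higher, so each member was set against the mean FPKM of Cd3d, Cd3e and Cd3g, parts of the T cell receptor complex, in the same tumor. This mean was 4.51, 1.74 and 1.86 FPKM in ACT + IL-2 tumors and 47.1, 53.2 and 24.5 FPKM in ACT + NKTR-214. Per Cd3, Gzmb was at 2.78, 3.12 and 3.41 in ACT + IL-2 and at 4.76, 4.61 and 9.94 in ACT + NKTR-214. The groups did not overlap, and the highest value was that of ACT + NKTR-214 replicate 3, the tumor with the lowest Cd3 of its group. The ratio of means was 2.07 (exact permutation test, two-sided p = 0.1, the smallest that 3 against 3 tumors allow).

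Per Cd3, Gzma, Gzmd, Gzme, Gzmf, Gzmg and Prf1 were also higher in ACT + NKTR-214, with no overlap between the groups. Per Cd3, 0.296% of all genes were higher without overlap and 96.5% were lower without overlap. Their ratios of means were 3.15 for Gzma, 3.89 for Gzmd, 5.08 for Gzme, 7.65 for Gzmf, 4.03 for Gzmg and 1.49 for Prf1 (exact permutation p = 0.1 each). Among the ACT + IL-2 tumors, Gzmf per Cd3 was at 0.0816, 0.138 and 0.986, and Gzmd, Gzme and Gzmg were likewise highest in replicate 3. Without this tumor the ratios were 11.0 for Gzmd, 10.7 for Gzme, 28.0 for Gzmf and 17.7 for Gzmg, so that their size and order rested on it. Gzmc overlapped, with a ratio of 2.09 (exact permutation p = 0.2). Gzmk per Cd3 was at 0.269, 0.631 and 0.323 in ACT + IL-2 and at 0.382, 0.300 and 0.383 in ACT + NKTR-214, a ratio of 0.87 (exact permutation p = 0.9), which became 1.20 without ACT + IL-2 replicate 2. Cd8a, the CD8 coreceptor, had the same ratio of 0.87 (exact permutation p = 0.8). Gzmm per Cd3 was at 0.0859, 0.339 and 0.292 against 0.0288, 0.0444 and 0.0343 and so was lower in all 3 ACT + NKTR-214 tumors, with a ratio of 0.15 (exact permutation p = 0.1).

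**Figure D2:**
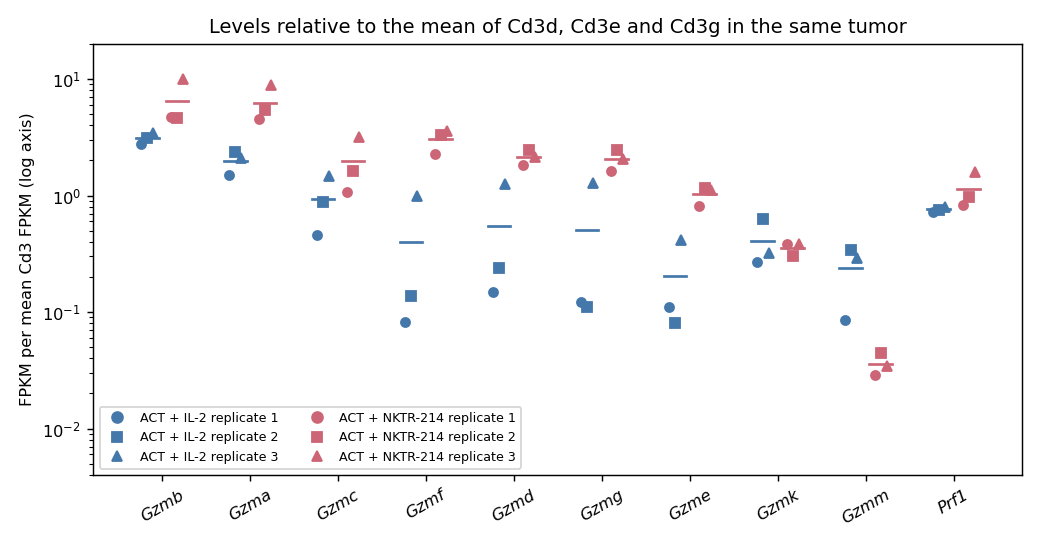
FPKM of each gene divided by the mean FPKM of Cd3d, Cd3e and Cd3g in the same tumor, on a log axis, with 1 point per tumor and a line at the mean of each group of 3. Gzmb, Gzma, Gzmd, Gzme, Gzmf, Gzmg and Prf1 were higher in ACT + NKTR-214 without overlap, Gzmc and Gzmk overlapped, and Gzmm was lower without overlap.

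The same question was put to limma after the mean log2(FPKM + 1) of the Cd3 genes was subtracted from every gene of a tumor. Gzma, Gzmb, Gzmc, Gzmd, Gzme, Gzmf and Gzmg were called higher, 7 of 10 members where 0.0635% of genes were, and Gzmm was called lower, where 99.4% of genes were. Because one reference value is shared by all genes, the variance pooled over genes treats its error as known and these adjusted p-values are too small. With the variance of each gene alone (4 degrees of freedom), 6 members were higher, where 0.0565% of genes were, and Gzmm was lower, where again 99.4% of genes were. Because nearly all genes were called, the adjustment hardly altered a p-value (Gzmb 0.0224 before and 0.0225 after, limma without moderation). It therefore gave almost no control for the number of genes tested. Gzmf differed by 2.64 ± 0.60 (SE, limma without moderation, adjusted p = 0.0115), Gzma by 1.85 ± 0.30 (adjusted p = 0.00365) and Gzmb by 1.28 ± 0.35 (adjusted p = 0.0225) on the log2 scale. With a pseudocount of 0.1 the moderated fit no longer called Gzmb (0.99, limma adjusted p = 0.0576). Gzmm differed by -2.81 ± 0.40 (adjusted p = 0.00249). Gzmc (1.02, adjusted p = 0.145), Prf1 (0.41, adjusted p = 0.210) and Gzmk (-0.57, adjusted p = 0.113) were not called in this fit, again by limma without moderation.

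**Figure D3:**
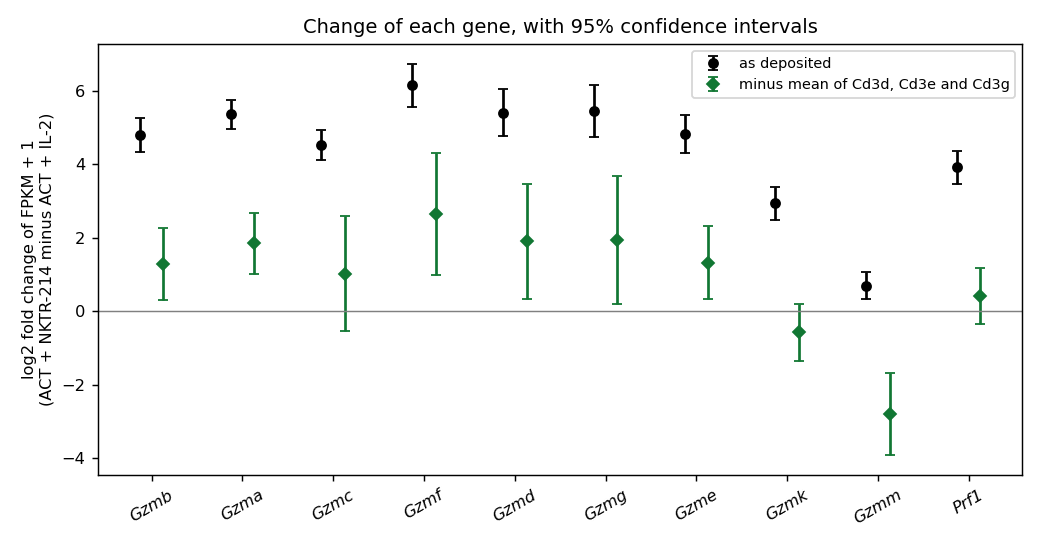
Log2 fold change of FPKM + 1, ACT + NKTR-214 minus ACT + IL-2, for the deposited values (circles) and after subtraction of the mean of Cd3d, Cd3e and Cd3g (diamonds, variance of each gene alone), with 95% confidence intervals over 3 tumors per group. The circles run from 0.70 for Gzmm to 6.15 for Gzmf, and after subtraction the intervals of Gzmc, Gzmk and Prf1 include 0 and that of Gzmm lies below it.

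Members also changed by different amounts among themselves. The Gzmb value subtracted in a tumor was shared by all genes. Moderated adjusted p-values relative to Gzmb are therefore too small, as those relative to Cd3 were. Relative to Gzmb, limma called 3 members lower, where 99.9% of genes were lower in either variance model. These were Gzmm by -4.09, Gzmk by -1.85 and Prf1 by -0.87 on the log2 scale, with adjusted p-values of 9.30e-04, 0.0109 and 0.00278 when the variance of each gene alone was used (limma without moderation). Here too nearly all genes were called, and the adjustment hardly altered a p-value (Gzmk 0.0109 before and after, limma without moderation). Gzmf was higher than Gzmb by 1.36 and Gzmg by 0.66, where 0.0212% of genes were called higher, but with the variance of each gene alone neither was called (limma adjusted p = 0.0956 and 0.404). Gzma was higher by 0.57 and was called with the variance of each gene alone (adjusted p = 0.0360), where 0.00706% of genes were called higher, but not with moderation by limma (adjusted p = 0.079), except in the fit without ACT + IL-2 replicate 1 (0.45, adjusted p = 0.00903). Gzmc was at -0.26 relative to Gzmb and not called (limma adjusted p = 0.430), but without ACT + IL-2 replicate 1 it was called lower (-0.59, limma adjusted p = 4.26e-04). Over all tumors and with the variance of each gene alone, Gzmc (adjusted p = 0.546), Gzmd (0.403) and Gzme (0.933) were not called (limma without moderation). Prf1 lost its call without ACT + NKTR-214 replicate 1 (limma adjusted p = 0.0521), without ACT + NKTR-214 replicate 3 (limma adjusted p = 0.0632) and with a pseudocount of 0.1 (limma adjusted p = 0.177). The pseudocount moved the difference of Gzme most, which relative to Gzmb was 0.04 with a pseudocount of 1 and 1.37 with 0.1, where it was called (limma adjusted p = 2.77e-04). Gzmd was higher than Gzmb by 0.62 and not called (limma adjusted p = 0.0641), but it was called with a pseudocount of 0.1 (1.45, limma adjusted p = 9.51e-05), without the intensity trend (0.62, limma adjusted p = 0.0457), without ACT + IL-2 replicate 3 (1.11, limma adjusted p = 0.00298) and without ACT + NKTR-214 replicate 3 (0.97, limma adjusted p = 0.0222).

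The summed FPKM of the 9 granzymes was 25.01, 13.8 and 21.5 in ACT + IL-2 and 815, 1136 and 766 in ACT + NKTR-214, a ratio of 45.1 between means. Gzma and Gzmb together made up 77.0%, 69.4% and 47.7% of it in ACT + IL-2 and 53.6%, 46.8% and 59.99% in ACT + NKTR-214. Gzmd to Gzmg made up 8.34%, 7.20% and 34.2% against 37.8%, 43.97% and 28.5%. For both sums ACT + IL-2 replicate 3 lay within the range of the ACT + NKTR-214 tumors, although its total was far lower than theirs.

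The share of 3 granzymes did not overlap between groups. Gzmf took 1.47%, 1.74% and 8.53% of the sum in ACT + IL-2 and 13.2%, 15.5% and 11.5% in ACT + NKTR-214. Gzmk took 4.85%, 7.99% and 2.79% against 2.21%, 1.40% and 1.22%. Gzmm took 1.55%, 4.29% and 2.53% in ACT + IL-2 and 0.166%, 0.208% and 0.109% in ACT + NKTR-214. For each of them the exact permutation p was 0.1, the smallest possible, and 0.3 after Benjamini-Hochberg adjustment over the 9 granzymes, so none passed a threshold. The share of Gzmb was 39.7% ± 10.3 and 26.9% ± 5.11 (SD, n = 3 each, exact permutation p = 0.2). The count of 3 rose to 7 without ACT + IL-2 replicate 3 and to 6 without ACT + NKTR-214 replicate 3. Leaving out a tumor changes no share in the other tumors, so this count could only stay or rise.

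**Figure D4:**
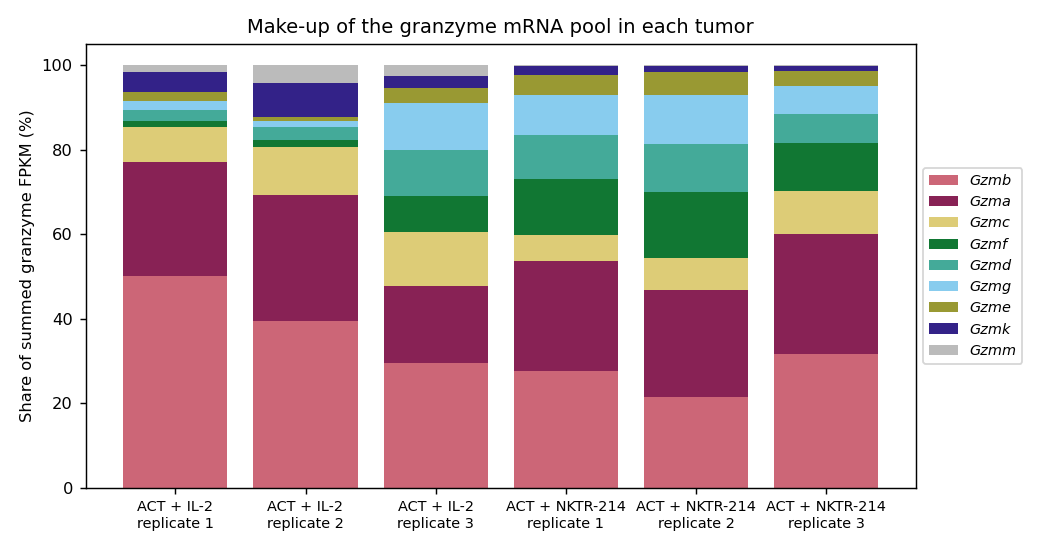
Share of each of the 9 granzymes in their summed FPKM, 1 stacked bar per tumor, in percent. Gzmf was larger and Gzmk and Gzmm were smaller in all 3 ACT + NKTR-214 tumors, and ACT + IL-2 replicate 3 differed from the other ACT + IL-2 tumors by its 34.2% of Gzmd to Gzmg.

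Within ACT + NKTR-214, the members followed different tumors. Replicate 3 held 48.0% of the mean Cd3e of replicates 1 and 2. Gzmd (48.7%), Gzmg (48.5%), Gzmm (45.1%), Gzme (54.5%), Gzmk (55.3%) and Gzmf (62.1%) were low in this tumor as Cd3e was. Gzmb (104%), Gzmc (114%), Gzma (86.6%) and Prf1 (85.2%) were at or near the level of the other tumors. With 1 such tumor this is a description without a test.

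Genes next to the members were compared in chromosomal order. Whether the same cells carried the differences of members and neighbors was not tested. Ctsg, the gene of cathepsin G, a granule protease of myeloid cells and 15.1 kb from Gzme, was at 0.0419, 0 and 0.143 FPKM in ACT + IL-2 tumors and at 4.58, 7.34 and 4.25 FPKM in ACT + NKTR-214. Its log2 fold change was 2.56 ± 0.16 (SE, limma adjusted p = 4.77e-08). Mcpt8, a basophil protease gene 32.4 kb away, was at 0.0499, 0 and 0 FPKM and at 0.578, 0.927 and 0.251 FPKM (log2 fold change 0.62, limma adjusted p = 0.00134). Mcpt4, a mast cell protease gene 55.3 kb away, was not called (0.30, limma adjusted p = 0.484). On the other side of the cluster Atp12a and Rnf17 were too low to test, and Cenpj, a centriole gene, had a log2 fold change of 0.00 (limma adjusted p = 0.991).

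At the other loci the neighbors were mostly level. Esm1, an endothelial gene on the other strand within the span of Gzmk, had a log2 fold change of -0.62 (limma adjusted p = 0.0639) and overlapped between groups. Whether strand was used in counting is not given in the sources used here. Gpx8 was at -0.36 (adjusted p = 0.0839), and Snx18 was higher by 0.54 (adjusted p = 0.0256, limma). Hspb3 (0.18) and Arl15 (0.14) were not called, and Mcidas and Cdc20b were too low to test. Around Gzmm, none of Madcam1, Tpgs1, Cdc34, Bsg, Hcn2 and Polrmt was called (log2 fold changes -0.20 to 0.26). Next to Prf1, Adamts14 was higher by 0.59 (limma adjusted p = 0.0115), Sgpl1 (0.29), Pald1 (0.28) and Eif4ebp2 (-0.37) were not called, and Tbata and Nodal were too low to test.

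**Figure D5:**
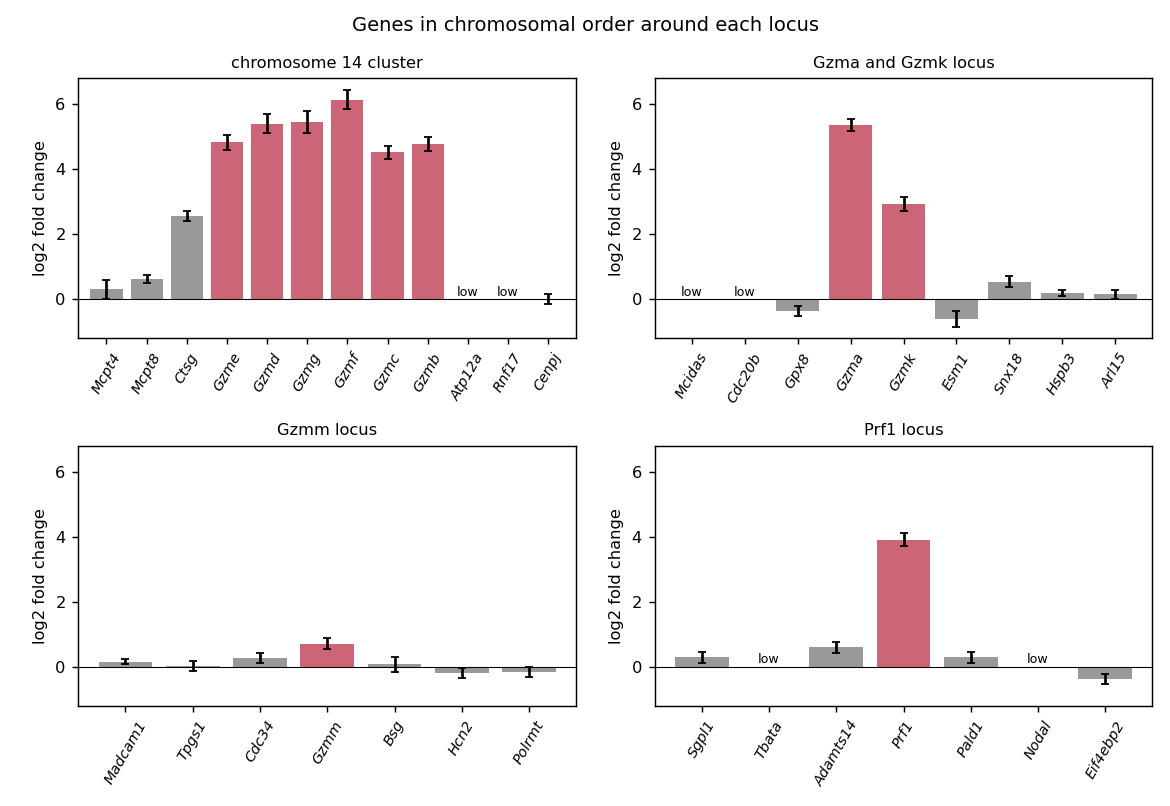
Log2 fold change of FPKM + 1 (ACT + NKTR-214 minus ACT + IL-2, limma, bars with 1 SE) for genes in chromosomal order at the 4 loci, with members in red, other genes in gray and genes too low to test marked low. Beside the members, Ctsg stands out at 2.56, and the other neighbors lie between -0.62 and 0.62.

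Other granule proteases were taken as a background for Ctsg and Mcpt8. Prtn3, a neutrophil protease gene, was higher by 0.72 (limma adjusted p = 0.00208), Cma1, a mast cell chymase gene, was not called (0.36, limma adjusted p = 0.368), Elane was too low to test, and Mcpt1, Mcpt2 and Mcpt9 were listed at 0 in all 6 tumors. Of 5 neutrophil genes, 2 were high enough to test (Prtn3 and S100a8) and both were higher, with a summed FPKM of 1.26 to 2.80 against 9.83 to 20.8 over all 5. Ly6g, which defines neutrophils, was at 0 in 5 tumors and at 0.133 FPKM in ACT + NKTR-214 replicate 2. Of 6 mast cell genes 5 were tested and none was called by limma, with sums of 5.27 to 10.2 and 3.88 to 13.6 FPKM.

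The cells that can carry granzymes were followed by marker genes. Both CD8 T cell genes were higher, Cd8a by 3.38 and Cd8b1 by 3.44 (log2, limma adjusted p at most 3.76e-07), and their sum was 3.31 to 8.21 FPKM in ACT + IL-2 and 45.1 to 99.6 FPKM in the other group. Cd4 was higher by 0.64 (limma adjusted p = 0.00234), and Foxp3, the regulatory T cell factor, was at 2.21 FPKM in both groups. Of 7 NK cell genes 5 were tested, and Klrb1c, Klre1 and Eomes were higher, of which Eomes is also a known factor of CD8 T cells. Ncr1, the most NK-specific of them, was at 0.915, 0.536 and 0.294 FPKM against 0.553, 1.15 and 0.316 FPKM (log2 fold change 0.07, limma adjusted p = 0.799), and Klra8 was not called (0.01). The sum over the 7 genes was 1.43 to 4.005 FPKM in ACT + IL-2 tumors and 11.7 to 22.9 FPKM in the others. Most of it in ACT + NKTR-214 came from Klre1 (10.9, 13.1 and 5.37 FPKM), Klrb1c and Eomes, and Ncr1 and Klra8 did not share the rise. Klra4, too low to test, was at 0.0860, 0.224 and 0.147 FPKM in ACT + IL-2 and at 0.0415, 0.0421 and 0 FPKM in ACT + NKTR-214. The sum is therefore no measure of NK cells alone. What each cell type contributed to the granzyme levels was not tested.

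Granule handling genes, which pack, move and release granules or shield the cell from its own proteases, were compared in the same fit. Of 21 listed, 20 were tested, and 12 were higher, where 20.7% of all genes were, 1 was lower, where 8.28% were, and 7 were not called. Their median log2 fold change was 0.64, beside 0.05 over all genes. With the variance of each gene alone 1 was called higher, where 0.713% of all genes were. The largest changes were those of Nkg7, a granule membrane protein gene (3.70 ± 0.26), Srgn, the proteoglycan that binds granzymes and perforin (2.82 ± 0.22), and Spn, the sialoglycoprotein CD43 (2.66 ± 0.25; SE, limma adjusted p at most 1.12e-06). Serpinb9, the granzyme B inhibitor, rose from 7.65 ± 2.29 to 17.8 ± 2.00 FPKM (log2 fold change 1.14, limma adjusted p = 1.57e-04), and its relative Serpinb9b by 1.96 (limma adjusted p = 1.14e-07). Ctsc, which cuts granzyme precursors into active enzymes, was higher by 1.12 (limma adjusted p = 0.00166). Among release genes, Unc13d, which primes granules, was higher by 1.98 (limma adjusted p = 1.36e-06), and Stxbp2 (0.30) was not called. Rab27a, which docks granules and which melanocytes also express for melanosome transport, was lower by 0.55 (log2 fold change -0.55, limma adjusted p = 0.0256), and Lyst was at -0.18 (limma adjusted p = 0.420). The melanocyte genes Pmel, Tyr and Tyrp1 were lower too, 3 of 5 called, by -0.78 to -1.08 on the log2 scale, and their part in the Rab27a value was not tested. Serpinb9, Serpinb9b, Ctsc, Unc13d and Stxbp2, and Runx3 and Eomes among the regulators, were chosen after their values were seen.

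Regulators known upstream of granzymes were higher in 17 of 22 cases, where 20.7% of all genes were, none was called lower, and the median log2 fold change was 1.36, beside 0.05 over all genes. With the variance of each gene alone 3 of the 22 were called higher, where 0.713% of all genes were. Il2ra, the high-affinity IL-2 receptor subunit, was at 0.655 ± 0.189 FPKM in ACT + IL-2 tumors and 21.4 ± 2.74 FPKM in those given NKTR-214 (log2 fold change 3.76, limma adjusted p = 7.88e-10). Il2rb, the signaling subunit, was higher by 3.72 and Tbx21, the gene of T-bet, by 2.39 (limma adjusted p = 5.82e-08 and 5.06e-07). Runx3 was higher by 2.16 and Eomes by 1.56 (limma adjusted p at most 1.03e-06). Stat5a (0.17), Stat5b (0.06), Stat3 (0.03), Zeb2 (0.12) and Bhlhe40 (0.41) were not called.

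Genes whose profile over the 6 tumors was most like a member were found by the root mean square difference of centered log2(FPKM + 1), where 0 means an identical profile. Nearest to Gzmb was Ifitm1 (0.27), an interferon-induced gene, and then Gzma (0.34), Gzmc, Prf1 and Gzme. For Gzma they were Gzmb (0.34), Gzme, Ifitm1, Gzmc and Gzmd. Gzmk was closest to H2-M2 (0.14), Cish, Atp2a3, Lck and Zap70 (0.17), of which Cish is a STAT5 target gene and Lck and Zap70 are T cell receptor kinases, and no other member was among its 5 nearest genes. Prf1 was nearest to Retnla (0.16), Il2ra, Nkg7, Ly6c2 and Il2rb. Gzmm was nearest to Sh2d1b2 (0.11), Sfn, Mcpt8, Ptger3 and Tnni3, all genes with log2 fold changes between 0.52 and 0.73. The 6 points fall in 2 groups, so that likeness mainly reflects a like difference between groups.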

How the data were processed

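RNA-seq of 6 whole B16F10 tumors (3 mice per group, so replicates are separate animals) was used. The authors sequenced 50-base single-end reads, aligned them with HISAT2 2.0.4 to GRCm38, obtained gene-level reads by HTSeq and deposited FPKM, 1 column per tumor. No read counts were used. Whole reads behind a low FPKM were estimated from the step of 1 read (tolerance 0.008 of a read), and the depth drawn from such steps is an estimate. The fewest reads that gave whole numbers in the range searched were taken. For Gzmk this step implied a length of 796 bases against 1389 exon bases in GENCODE, so its true reads may be more.

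On the log2(FPKM + 1) scale, every gene whose mean FPKM reached 0.1 was fitted with limma 3.58.1 (R 4.3.3, eBayes with an intensity trend), and p-values were adjusted by Benjamini-Hochberg over all 14172 genes at 0.05. For single values the exact permutation test (two-sided) was used. Differences relative to Cd3 or Gzmb were fitted after subtraction of the reference in each tumor. For these relative differences a fit without moderation of the variance was added after seeing the data, and so were ratios of means without each tumor. The fit without moderation of the deposited values was planned. Positions are from GENCODE on GRCm38 and promoters from RefSeq, GRCm38.p6, matched by symbol for all 10 members (the first listed start site). Sequence work used Python 3.11.15 and Biopython 1.88.

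The members, lists and tests were chosen with earlier results of these data known. Named genes were the members, Gzmn, T cell and NK markers, the 3 largest and 2 smallest log2 fold changes of each list, 3 protein-coding neighbors on each side, other granule proteases and the 5 genes of most similar profile. Alternatives were other pseudocounts, minima and scalings, eBayes without trend, no moderation, a replicate block, other references and pools, and each tumor left out. The fit was tested on simulated data.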

Additional observations from a re-analysis of the deposited data

How the results depend on the processing

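Each count was recomputed under other settings. Without moderation of the variance, 6 members, 1 granule handling gene and 3 upstream regulators were called higher, against 10, 12 and 17, and the members lost were Gzmd (adjusted p = 0.052), Gzmg (0.055), Gzmk (0.053) and Gzmm (limma without moderation). This fit changes both the degrees of freedom and the standard error of each gene, and which of them ended the calls was not tested. With Gzma as reference in place of Gzmb, 6 members were lower in place of 3, and the difference of Gzme turned from 0.04 to -0.53. Gzma changed by 0.57 more than Gzmb, so the new reference lowers every difference by that amount, and Gzmb itself then counts among the 6. The ratio of Gzmk per Cd3 was 0.744 to 1.20 with 1 tumor left out, and turned from 0.87 to 1.20 without ACT + IL-2 replicate 2. When tumors were left out one at a time, the granzymes whose pool share did not overlap numbered 3 to 7, a count that could not fall. Members called higher numbered 9 to 10, granule handling genes 8 to 13, upstream regulators 16 to 17, members higher relative to Cd3 6 to 7 and members lower relative to Gzmb 2 to 4. The counts of 9, 8 and 16 came from the fit without ACT + IL-2 replicate 2. Its summed FPKM over all entries was 176420, against 217581 to 246514 in the other tumors. Of all counts under alternatives, 71 stayed within 1.5 times the main count and 6 did not. Of the tested log2 differences of single members, 361 kept their direction and side of the threshold, 22 lost a call, 9 gained one, 1 reversed and was then called, and 3 changed sign without being called in either fit (relative to Gzmb, Gzmc with a pseudocount of 0.1, and Gzme when either ACT + IL-2 replicate 1 or ACT + NKTR-214 replicate 2 was dropped). Of the untested ratios of means with 1 tumor left out, 112 stayed within 1.5 times, 7 (Gzmd to Gzmg, without ACT + IL-2 replicate 3) did not and 1 (Gzmk per Cd3) reversed. Quantile normalization shifted the log2 fold change of the median gene from 0.05 to -0.10, and 9 members were then called higher.

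Tumors with the same replicate number deviated together in 1 of 3 pairs (correlations of -0.21, -0.07 and 0.40). With ACT + NKTR-214 tumors of another number, the highest correlations of ACT + IL-2 replicates 1, 2 and 3 were 0.59, 0.04 and 0.18. The replicate numbers were therefore not taken as pairs. With the number as a replicate block, 10 members, 13 granule handling genes and 17 upstream regulators were called higher, 7 members were higher relative to Cd3 and 3 lower relative to Gzmb, where Gzmg lost its call as higher (limma adjusted p = 0.138).

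Depth limits the low members. The ACT + IL-2 values of Gzmd to Gzmg, Gzmk and Gzmm rest on 3 to 46 reads per tumor, so their fold changes carry counting error beside the spread between mice.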
